A study of Mus musculus with 27 samples.

Results

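The genes Hmgcs1, Idi1, Fdft1, Sqle, Lss, Dhcr7 and Insig1 were followed in the brain of mouse fetuses of 3 strains, C57BL/6J, Cav1-null and AKR/J. These 7 genes were taken by their symbols from the 55416 genes of the read-count table, and all 7 passed the filter on low counts in every comparison. Of the 7, 6 encode enzymes of cholesterol synthesis and Insig1 encodes a regulator of it. The set holds no gene of cholesterol uptake. RNA of the whole brain was sequenced from fetuses labelled as female at day 12, day 15 or day 17 of gestation (d12, d15 and d17). There were 27 libraries, 3 per strain and day, hence 9 groups. C57BL/6J and AKR/J mice are inbred, and Cav1-null mice (B6.Cg-Cav1tm1Mls/J) are a line congenic to C57BL/6J that carries a targeted null allele of Cav1 in every cell. No group received a treatment. AKR/J differs from the other strains across its whole genome, and the labels do not say which fetuses shared a dam, so that the p-values measure the spread between these fetuses only. Levels are in CPM, read counts scaled to the TMM-adjusted size of their library.

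Cholesterol is built from acetyl-CoA through mevalonate, isoprenoid units, squalene and lanosterol. Hmgcs1 makes the precursor of mevalonate, Idi1 converts the isoprenoid units into each other, Fdft1 joins farnesyl units into squalene, Sqle oxidizes squalene, Lss closes it into lanosterol, and Dhcr7 reduces the last double bond on one branch of the route. When sterols are scarce, the SREBP transcription factors leave the endoplasmic reticulum and raise the genes of the pathway, and Insig1, itself one of their targets, holds them back when sterols are plentiful. The brain makes most of its own cholesterol, because lipoproteins of the blood hardly pass the blood-brain barrier. Caveolae are small pits of the cell membrane that are rich in cholesterol and are shaped by caveolin-1, the product of Cav1, which is the reason to compare Cav1-null mice with the other strains.

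The libraries held 26363697 to 39759702 reads on genes. Cav1 reached no more than 0.509 CPM in Cav1-null, while its lowest level was 10.4 CPM in C57BL/6J and 9.25 CPM in AKR/J. The neuronal genes Tubb3 and Map2 were present in all 27 libraries, at no less than 343 and 557 CPM. Some libraries stood apart. The slope of gene levels on the GC content of the transcript, in log2 per 10 percentage points of GC, was positive in 8 of the 9 C57BL/6J libraries, up to 0.409, and was -0.127 in C57BL/6J d17 replicate 2. It was negative in all 9 Cav1-null libraries, from -0.272 to -0.052, and ranged from -0.313 to 0.028 in AKR/J. The 14 erythroid marker genes summed to between 33280 and 198000 CPM on d12 in AKR/J and to no more than 18620 CPM in the other groups. The 11 trophoblast and decidua markers summed to 887.5, 81.81 and 37.9 CPM in AKR/J d12 replicates 1, 2 and 3, to 82.35 CPM in C57BL/6J d12 replicate 3 and to no more than 8.302 CPM in the other libraries, and the 14 yolk sac markers reached 1723 CPM in AKR/J d12 replicate 1. Each comparison below was also made after the trend with GC content and length had been removed from every library, a step chosen after seeing the data.

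Promoters were read for 5 of the 7 genes from RefSeq (GRCm38.p6), and Sqle and Fdft1 had no entry. The 250 bases before the start of the gene are shown for the 3 genes that rose late in Cav1-null mice (Hmgcs1, Insig1 and Lss) and for Idi1, which was called more often than the other 6, higher in 7 and lower in 2 of the 21 comparisons. Capitals mark exact matches on either strand to the sterol regulatory element core (CACCCCAC, CACCCCAT or CACCCGAC), the NF-Y box (CCAAT), the E-box (CACGTG) and the Sp1 box (GGGCGG), the sites at which SREBP and its partner factors are known to bind.
Hmgcs1 (chr13:119690101-119690350, plus strand): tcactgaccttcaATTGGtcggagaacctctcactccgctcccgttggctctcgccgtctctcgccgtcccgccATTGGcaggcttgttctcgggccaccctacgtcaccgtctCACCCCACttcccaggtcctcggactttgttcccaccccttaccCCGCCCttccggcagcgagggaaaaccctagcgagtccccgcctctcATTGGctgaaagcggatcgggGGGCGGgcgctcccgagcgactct
Insig1 (chr5:28071162-28071411, plus strand): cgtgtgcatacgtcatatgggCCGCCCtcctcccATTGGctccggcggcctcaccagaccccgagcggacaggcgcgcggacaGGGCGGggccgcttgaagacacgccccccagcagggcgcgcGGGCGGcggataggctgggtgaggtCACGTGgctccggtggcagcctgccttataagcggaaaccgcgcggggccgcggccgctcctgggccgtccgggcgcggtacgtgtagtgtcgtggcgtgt
Lss (chr10:76531355-76531604, plus strand): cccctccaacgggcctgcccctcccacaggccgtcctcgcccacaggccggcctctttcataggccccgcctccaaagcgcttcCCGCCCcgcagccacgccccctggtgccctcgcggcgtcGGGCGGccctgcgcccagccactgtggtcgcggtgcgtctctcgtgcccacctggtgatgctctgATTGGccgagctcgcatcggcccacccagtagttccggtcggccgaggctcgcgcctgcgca
Idi1 (chr13:8885356-8885605, plus strand): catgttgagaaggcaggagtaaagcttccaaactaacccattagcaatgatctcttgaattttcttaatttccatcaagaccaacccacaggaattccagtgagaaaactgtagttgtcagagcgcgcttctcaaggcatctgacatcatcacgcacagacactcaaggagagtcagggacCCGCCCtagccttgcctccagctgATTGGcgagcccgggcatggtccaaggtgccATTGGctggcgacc

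Of these promoters, only that of Hmgcs1 held a sterol regulatory element core in one of the 3 spellings, at bases -136 to -129, while 3.93% of the 32851 promoters in the table held one. A CCAAT match was present in each of the 4, against 33.9% of all promoters, and the Hmgcs1 promoter held 3 of them and that of Idi1 held 2. GGGCGG was also present in each of the 4, against 32.7% of all promoters, and CACGTG was found in that of Insig1, at bases -101 to -96, against 6.02% of all promoters. The matches in the shown promoters did not overlap each other. They describe the letters of these windows and do not show binding. Of the 3 Dhcr7 promoters in the table, 1 held 2 CCAAT and 3 GGGCGG matches, 1 held a GGGCGG match and 1 held a CACGTG match.

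Per kilobase of transcript, Hmgcs1 had the highest level of the 7 genes in each of the 9 groups, with 64.1 to 111 CPM per kb as group means. Sqle came second in all 9 groups, with 39.07 to 59.4 CPM per kb. Outside AKR/J d12, Fdft1 followed Sqle and Insig1 followed Fdft1, with Lss, Dhcr7 and Idi1 below. In AKR/J d12 Idi1 stood next after Sqle, at 34.2 CPM per kb, against 9.21 CPM per kb in C57BL/6J d15. Over the 9 libraries of a strain, Hmgcs1 (ENSMUSG00000093930, chromosome 13, 120151915 to 120170470, GRCm39) ranged from 225 to 420 CPM with a median of 311 CPM in AKR/J, from 304 to 568 CPM with a median of 398 CPM in C57BL/6J, and from 269.9 to 465 CPM with a median of 349.5 CPM in Cav1-null. Fdft1 (ENSMUSG00000021273, chromosome 14, 63382189 to 63417027) was the steadiest outside AKR/J d12. Its group means lay between 120.8 ± 8.50 CPM in Cav1-null d15 and 136 ± 7.47 CPM in C57BL/6J d12 (SD, n = 3), and AKR/J d12 stood below them at 80.98 ± 9.58 CPM.

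**Figure D1:**
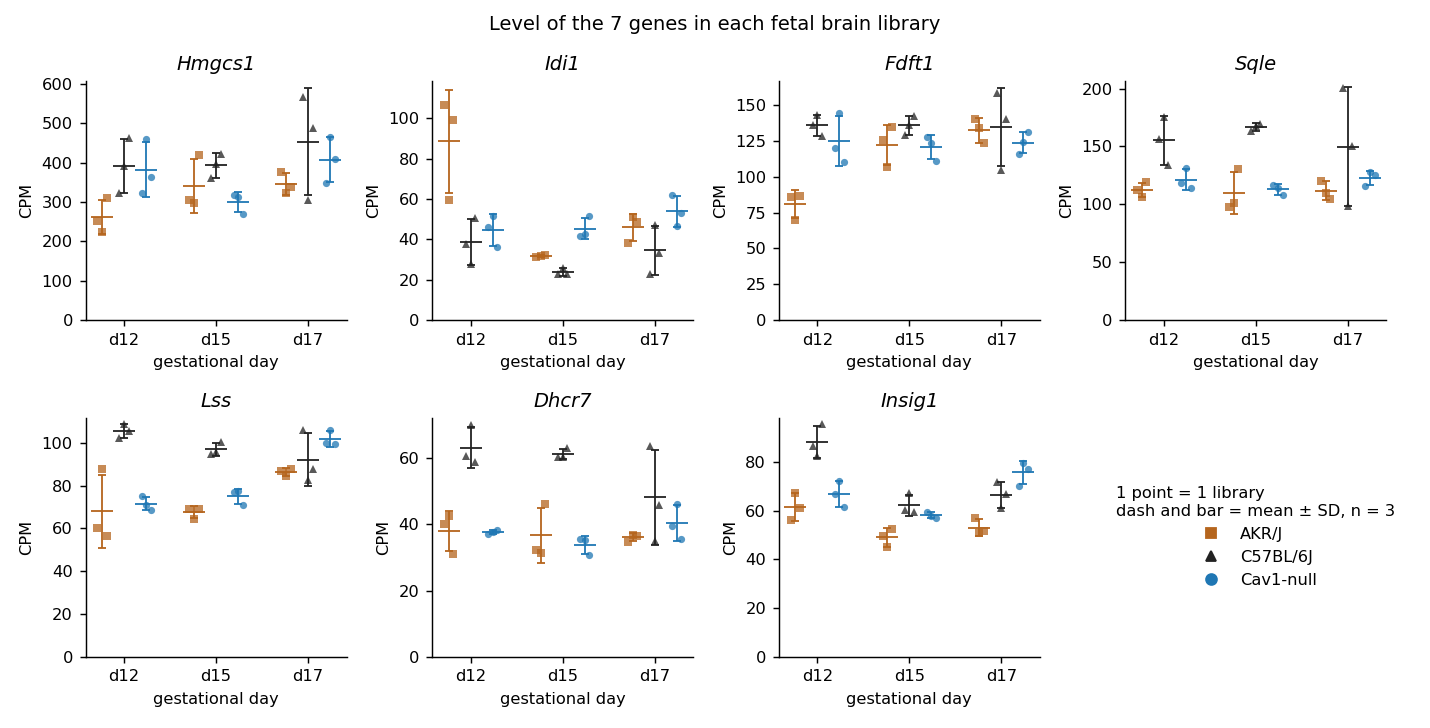
CPM (y axis, from 0) of the 7 genes in each library on d12, d15 and d17 (x axis), with 1 point per library and each group's mean ± SD (n = 3). The C57BL/6J libraries of d12 and d15 sit above the other strains for Sqle, Lss and Dhcr7, the C57BL/6J libraries of d17 are spread wide, and Idi1 is highest in AKR/J d12.

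Cav1-null was compared with C57BL/6J first, on each day. On d15, 58.6% of 19827 tested genes differed at an adjusted p under 0.05 (quasi-likelihood test of edgeR, Benjamini-Hochberg adjustment over all tested genes, used for every adjusted p here), 26.8% being higher and 31.8% lower in Cav1-null. Of the 7 genes, 5 were called, 4 of them lower and 1 higher in Cav1-null. The median log2 difference of the 7 was -0.33, against 0.034 for all tested genes.

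Hmgcs1 had 360, 398 and 424 CPM in the C57BL/6J libraries of d15 and 319, 312 and 269.9 CPM in those of Cav1-null. The 2 strains did not overlap, and the log2 difference was -0.35 (SE 0.079, adjusted p = 0.00330). Sqle (ENSMUSG00000022351, chromosome 15, 59186869 to 59203043), which makes squalene epoxide, had 163, 168 and 169.6 CPM in C57BL/6J and 117, 114 and 108 CPM in Cav1-null. Every Cav1-null library was below every C57BL/6J library (log2 difference -0.52, SE 0.053, adjusted p = 1.30e-05). Lss (ENSMUSG00000033105, chromosome 10, 76367298 to 76392976), the lanosterol synthase, had 94.7, 95.9 and 101 CPM in C57BL/6J and 76.9, 77.3 and 71.0 CPM in Cav1-null. Its log2 difference was -0.33 (SE 0.057, adjusted p = 0.000577). The largest difference below 0 was that of Dhcr7 (ENSMUSG00000058454, chromosome 7, 143376740 to 143402149), the reductase of the last step. It had 60.4, 60.5 and 63.0 CPM in C57BL/6J and 35.6, 35.3 and 30.7 CPM in Cav1-null, with a gap between the strains many times the spread within them (log2 difference -0.81, SE 0.073, adjusted p = 5.30e-06).

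Idi1 (ENSMUSG00000058258, chromosome 13, 8935537 to 8942487), the isomerase of the isoprenoid units, went the other way. It had 22.7, 25.99 and 22.8 CPM in C57BL/6J d15 and 41.7, 42.7 and 51.3 CPM in Cav1-null d15, and the log2 difference was 0.97 (SE 0.095, adjusted p = 1e-05). The differences of Fdft1 (-0.13, SE 0.065, adjusted p = 0.115) and Insig1 (-0.059, SE 0.063, adjusted p = 0.444) were not called. The number of genes called stayed at 5 whichever library was left out (49.8% to 53.7% of all genes), but the call of Hmgcs1 was lost when counts were scaled by library sizes alone (-0.169, adjusted p = 0.0849) and in 1 model of all 27 libraries (-0.391, adjusted p = 0.129). With reads across splice junctions in place of gene counts, 2 of 6 genes were called lower and 0 higher, while 54.5% of all genes were called. Neither Hmgcs1 (-0.094, adjusted p = 0.343) nor Lss (-0.216, adjusted p = 0.471) was then called, and Idi1 had no value there because its junctions were at 0 in some libraries. Markers of brain cells differed in the same libraries. The 10 astrocyte markers summed to 380 to 429.6 CPM in Cav1-null d15 and 799.1 to 943.4 CPM in C57BL/6J d15, with 1 higher and 7 lower. The 10 markers of the oligodendrocyte lineage summed to 123 to 142 CPM against 200.8 to 243.4 CPM, with 2 higher and 7 lower. Of the 16 progenitor and cell cycle markers 3 were higher and 11 lower, and of the 18 neuronal markers 4 were higher and 11 lower. The part of these cells in the differences of the 7 genes was not tested.

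On d12, 0% of 19475 genes were called by edgeR between these strains, with 4309 at an unadjusted p under 0.05. Of the 7 genes, 0 were called, 3 had an unadjusted p under 0.05 and DESeq2 called 2, as it did 16.1% of all genes. Without C57BL/6J d12 replicate 3, Lss (adjusted p = 0.0492) and Dhcr7 (adjusted p = 0.0326) were called lower, with 7.37% of all genes. Dhcr7 had 58.8 to 70.2 CPM in C57BL/6J d12 and 37.1 to 38.5 CPM in Cav1-null d12 (log2 difference -0.71, SE 0.123, adjusted p = 0.105), and Lss had 102 to 109 CPM against 68.8 to 75.2 CPM (log2 difference -0.53, SE 0.12, adjusted p = 0.105). The libraries of the strains did not overlap for Sqle, Insig1, Lss and Dhcr7. The share of all genes without overlap was not counted, so this only describes these libraries. On d17, 0.0491% of 20358 genes were called (0.00491% higher and 0.0442% lower in Cav1-null) and 0 of the 7, of which 1 had an unadjusted p under 0.05 and DESeq2 called 0. The C57BL/6J libraries of d17 were far apart. Sqle had 201, 98.2 and 151 CPM in C57BL/6J replicates 1, 2 and 3, and Dhcr7 had 63.7, 35.1 and 45.8 CPM, while Idi1 had 23.0, 47.4 and 33.4 CPM. Replicate 2, the library with the negative GC slope, lay in or below the range of the 3 Cav1-null libraries for Sqle (116 to 128 CPM), Dhcr7 (35.6 to 46.3 CPM) and Idi1 (46.9 to 61.9 CPM). Without it, Sqle was lower (-0.53, adjusted p = 0.0474) and Idi1 higher (0.92, adjusted p = 0.0254) in Cav1-null, while 13.6% of all genes were called.

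Combined over the 3 days, 42.7% of 22282 genes were called between Cav1-null and C57BL/6J, 18.5% higher and 24.2% lower. Of the 7 genes, 4 were called. Sqle (-0.40, SE 0.102, adjusted p = 0.00462), Lss (-0.26, SE 0.088, adjusted p = 0.0259) and Dhcr7 (-0.61, SE 0.109, adjusted p = 0.000398) were lower in Cav1-null on the log2 scale, and Idi1 was higher (0.59, SE 0.145, adjusted p = 0.00310). Leaving out 1 library at a time gave 3 to 6 called genes (35.8% to 47.2% of all genes), and Sqle, Idi1 and Dhcr7 were called each time, with adjusted p-values of up to 0.0122, 0.00852 and 0.00134. The call of Lss was lost without C57BL/6J d12 replicate 2, C57BL/6J d15 replicate 3, Cav1-null d15 replicate 3 or any Cav1-null library of d12 (adjusted p = 0.0569 to 0.0639), and 6 genes were called without C57BL/6J d17 replicate 2 (47.2% of all genes), with Hmgcs1 and Fdft1 lower as well. With library sizes alone the difference of Lss was -0.141 (adjusted p = 0.155) and was not called. With junction reads, which gave a value for 5 of the 7 (not Insig1 or Idi1), 0 were called by edgeR, against 46.2% of all genes.

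**Figure D2:**
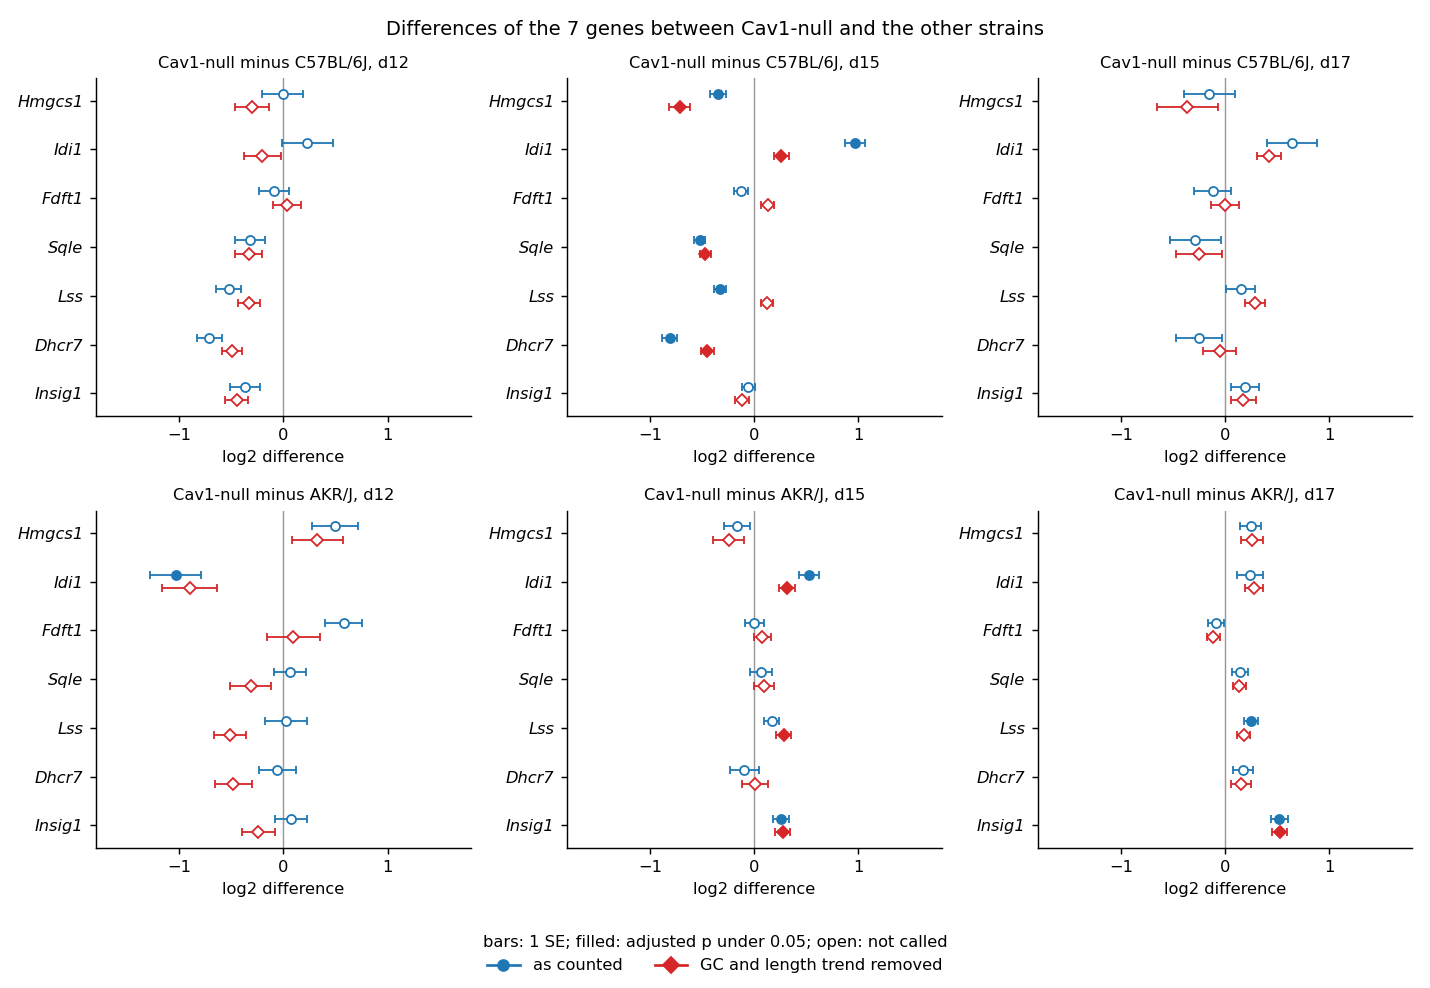
Log2 difference (x axis) of each gene (y axis) between Cav1-null and C57BL/6J (top) or AKR/J (bottom) on d12, d15 and d17, with bars of 1 SE, as counted (circles) and after removal of the GC and length trend (diamonds), filled where the adjusted p was under 0.05. Against C57BL/6J on d15, Idi1 moves from 0.97 to 0.26 and Lss crosses 0 once the trend is removed, while Hmgcs1, Sqle and Dhcr7 stay below 0.

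The GC slope of the libraries moved with several of these genes. The Idi1 transcript has a GC content of 39.0%, and only 3.63% of 16392 expressed genes lie below it, whereas the Dhcr7 transcript has 54.2% and 72.6% of genes lie below it. Across the 27 libraries, which share groups and depth, the correlation of log2(CPM + 1) with the GC slope was -0.83 for Idi1 (Pearson's r, given as a description), 0.89 for Dhcr7, 0.87 for Sqle, 0.65 for Lss, 0.57 for Fdft1, 0.55 for Hmgcs1 and 0.36 for Insig1. For deviations from the group means it was -0.93 for Idi1 and 0.77 for Dhcr7, so that the relation was also present among the libraries of a group. The slopes on transcript length were also apart, at 0.19 to 0.209 in C57BL/6J d15 and -0.031 to -0.024 in Cav1-null d15 (log2 per doubling of length). The Lss transcript has 6381 bases and a GC content of 48.9%, near the median of 49.9%. GC and length were removed together, so that their parts cannot be told apart. With the trend removed, the d15 differences between Cav1-null and C57BL/6J were -0.72 for Hmgcs1 (SE 0.099, adjusted p = 0.000140), -0.47 for Sqle (SE 0.052, adjusted p = 2.83e-05), -0.45 for Dhcr7 (SE 0.062, adjusted p = 0.000142) and 0.26 for Idi1 (SE 0.073, adjusted p = 0.0137). Lss turned to 0.12 (SE 0.056, adjusted p = 0.0953) and was no longer called, while 44.9% of all genes were. Over the 3 days, Hmgcs1 (-0.47, adjusted p = 0.0204), Sqle (-0.36, adjusted p = 0.0136) and Dhcr7 (-0.34, adjusted p = 0.00636) were then lower in Cav1-null. Idi1 (0.15, adjusted p = 0.268) and Lss (0.022, adjusted p = 0.857) were not called. The share of all genes called in this fit is not given here, and it was 42.7% before the trend was removed.

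**Figure D3:**
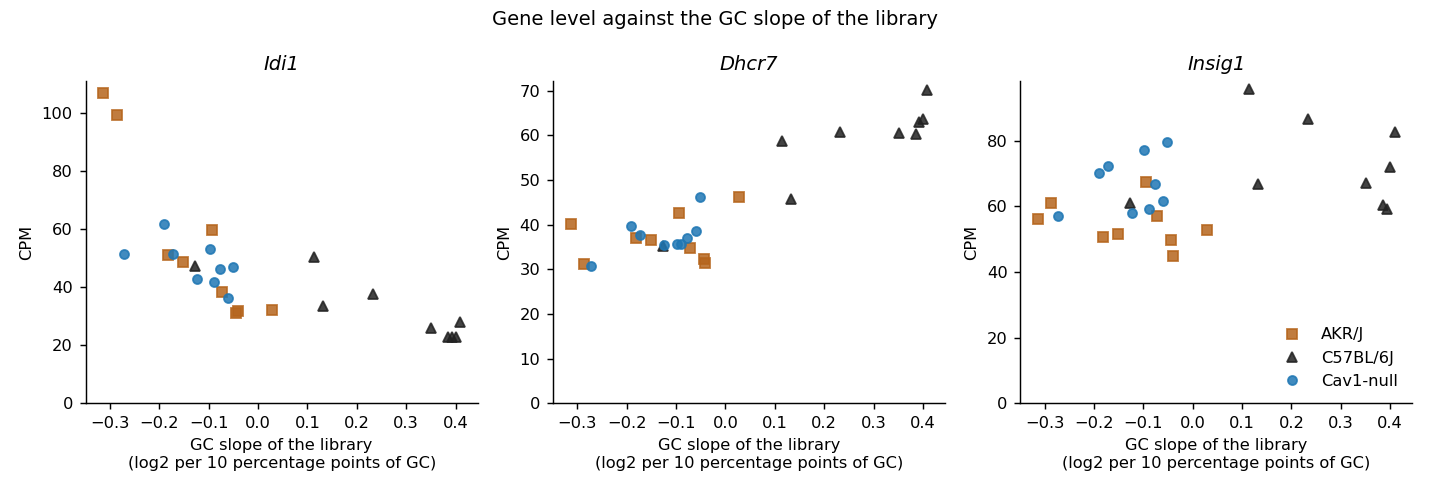
CPM (y axis, from 0) of Idi1, Dhcr7 and Insig1 in each of the 27 libraries against the GC slope of the library (x axis, log2 per 10 percentage points of GC), with 1 point per library. Idi1 falls and Dhcr7 rises with the slope (r = -0.83 and 0.89 on log2(CPM + 1)), and the C57BL/6J library at -0.127 sits among those of the other strains.

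Against AKR/J, the differences of Cav1-null took another course. On d12, 19.6% of 19955 genes were called, 9.93% higher and 9.65% lower in Cav1-null, and 1 of the 7. Idi1 had 107, 59.6 and 99.3 CPM in AKR/J d12 and 46.2, 51.5 and 36.1 CPM in Cav1-null d12 (log2 difference -1.04, SE 0.245, adjusted p = 0.0211). The lowest AKR/J value was that of replicate 2, in which the erythroid genes were also lowest of the 3, at 33280 CPM against 101800 and 198000 CPM. Without the GC and length trend, the difference of Idi1 was -0.90 (SE 0.263, adjusted p = 0.0512). Fdft1 had 111 to 145 CPM in Cav1-null and 69.9 to 86.9 CPM in AKR/J, which did not overlap, with a log2 difference of 0.58 (SE 0.177, adjusted p = 0.0512). Hmgcs1 had 252, 225 and 311 CPM in AKR/J and 323, 459 and 365 CPM in Cav1-null, also without overlap (log2 difference 0.50, SE 0.225, adjusted p = 0.157). Without the GC and length trend, the differences were 0.093 for Fdft1 (SE 0.256, adjusted p = 0.827) and 0.326 for Hmgcs1 (SE 0.247, adjusted p = 0.381). Which genes were called on this day changed with the scaling. With library sizes alone, Hmgcs1 (0.935, adjusted p = 0.0278) and Fdft1 (1.018, adjusted p = 0.0167) were called higher and Idi1 was not called (-0.555, adjusted p = 0.0973), while the median of all genes moved from 0.005 to 0.409. With junction reads, Hmgcs1 (0.938, adjusted p = 0.0150) and Fdft1 (0.802, adjusted p = 0.0251) were called higher and Idi1 had no value. Idi1 was called only with all 6 libraries or without AKR/J d12 replicate 2, and its adjusted p was 0.0578 to 0.0802 when another library was left out, where 5.97% to 12.7% of all genes were called. Without AKR/J d12 replicate 2, Fdft1 was called as well (0.47, adjusted p = 0.0259), with 35.1% of all genes. The part of the erythroid reads in these differences was not tested.

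On d15, 19.3% of 20172 genes were called between Cav1-null and AKR/J, 9.7% higher and 9.6% lower, and 2 of the 7 were higher. Insig1 (ENSMUSG00000045294, chromosome 5, 28276315 to 28283668) had 49.8, 45.0 and 52.7 CPM in AKR/J and 59.3, 58.0 and 56.9 CPM in Cav1-null (log2 difference 0.26, SE 0.076, adjusted p = 0.0464). Idi1 had 31.2 to 32.2 CPM against 41.7 to 51.3 CPM (log2 difference 0.53, SE 0.098, adjusted p = 0.00782). The call of Insig1 was lost when any library other than AKR/J d15 replicate 3 was left out (adjusted p = 0.0954 to 0.145, with 8.36% to 21.7% of all genes called). It was also lost with RLE (adjusted p = 0.0536), library sizes alone (adjusted p = 0.0531), no filter (adjusted p = 0.0930) and the likelihood ratio test (adjusted p = 0.0579), and with junction reads Insig1 was at 0.011 (adjusted p = 0.976). In 1 model of all 27 libraries neither Insig1 (0.241, adjusted p = 0.174) nor Idi1 (0.512, adjusted p = 0.204) was called, as 6.8% of all genes were. After removal of the GC and length trend, Lss was called higher as well (0.281, adjusted p = 0.0249), and Idi1 had 0.315 (adjusted p = 0.0204). On d17, 12.4% of 20285 genes were called, 6.67% higher and 5.73% lower, and again 2 of the 7 were higher. Insig1 had 56.98, 50.7 and 51.5 CPM in AKR/J and 70.3, 79.6 and 77.2 CPM in Cav1-null. Its log2 difference was 0.52 (SE 0.082, adjusted p = 0.00140), and it was called whichever library was left out. Lss had 99.7 to 106 CPM in Cav1-null and 84.4 to 87.7 CPM in AKR/J (log2 difference 0.25, SE 0.069, adjusted p = 0.0367), but leaving out any 1 of the 6 libraries gave an adjusted p between 0.0543 and 0.168, and it was 0.0558 with no filter and 0.477 in 1 model. With junction reads neither Insig1 (0.404, adjusted p = 0.226) nor Lss (0.536, adjusted p = 0.0820) was called, as 3.37% of all genes were. After removal of the GC and length trend, Lss was not called (0.179, adjusted p = 0.0763), while 14.1% of all genes were. Without Cav1-null d17 replicate 1, Hmgcs1 was called higher (0.34, adjusted p = 0.0330). The fits of d17 that left out 1 library called 6.52% to 11.2% of all genes.

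Combined over the 3 days, 19.9% of 22705 genes were called between Cav1-null and AKR/J, 11.1% higher and 8.85% lower, and 1 of the 7. This was Insig1, higher in Cav1-null by 0.29 on the log2 scale (SE 0.076, adjusted p = 0.0116). Without AKR/J d12 replicate 2, Lss was called too (0.23, adjusted p = 0.00731), with 19.2% of all genes. With junction reads Insig1 was at 0.262 (adjusted p = 0.126). After removal of the GC and length trend the difference of Insig1 was 0.19 (SE 0.096, adjusted p = 0.167), while the d15 and d17 differences of Insig1 were 0.27 (adjusted p = 0.0287) and 0.52 (adjusted p = 0.000396). On d12 the difference of Insig1 was then -0.24 (adjusted p = 0.324).

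AKR/J was also set against C57BL/6J, which shares the C57BL/6J libraries with the comparisons above. On d12, 28.6% of 19320 genes were called, 14.5% higher and 14.1% lower in AKR/J, and 3 of the 7, with Idi1 higher in AKR/J (1.33, SE 0.295, adjusted p = 0.0161) and Fdft1 (-0.61, SE 0.175, adjusted p = 0.0336) and Dhcr7 (-0.59, SE 0.19, adjusted p = 0.0470) lower on the log2 scale. With library sizes alone Idi1 was not called (0.832, adjusted p = 0.0703), and with RLE Dhcr7 was not (-0.563, adjusted p = 0.0531). With the GC and length trend removed, 0 of the 7 and 10.5% of all genes were called on d12 by edgeR. The count of 3 was 0 without AKR/J d12 replicate 1 or 3 or C57BL/6J d12 replicate 1 or 2, where the share of all genes called fell to between 0.122% and 8%, and 5 without AKR/J d12 replicate 2, with Insig1 and Lss lower as well, where it was 39.9%. In these fits the number of members called moved with the share of all genes. Markers of other cells were apart in the same libraries. The erythroid markers summed to between 33280 and 198000 CPM in AKR/J d12 and to between 1945 and 4688 CPM in C57BL/6J d12, with 12 of 14 called higher and 1 lower. The 18 neuronal markers summed to 2294 to 2796 CPM against 4079 to 7198 CPM (0 higher, 8 lower), and the 10 astrocyte markers to 397.7 to 496.2 CPM against 605.3 to 858.7 CPM (0 higher, 3 lower). Their part in the differences of the 7 genes was not tested.

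On d15, 41.1% of 19692 genes were called, 18.8% higher and 22.3% lower, and 5 of the 7. Idi1 was higher in AKR/J (0.48, adjusted p = 0.00358), and Sqle (-0.54, adjusted p = 0.00468), Insig1 (-0.27, adjusted p = 0.0219), Lss (-0.46, adjusted p = 0.000718) and Dhcr7 (-0.68, adjusted p = 0.00557) were lower. The call of Insig1 was lost without AKR/J d15 replicate 1 or 2 or C57BL/6J d15 replicate 2 (adjusted p = 0.0591 to 0.130), and Hmgcs1 was called without AKR/J d15 replicate 3 (-0.33, adjusted p = 0.0220), with 28.2% to 37.9% of all genes called when any 1 library was left out. With library sizes alone Insig1 was at -0.109 (adjusted p = 0.223), in 1 model of all 27 libraries Idi1 was at 0.412 (adjusted p = 0.211), and with junction reads Insig1 (-0.011, adjusted p = 0.963), Lss (0.018, adjusted p = 0.959) and Dhcr7 (-0.445, adjusted p = 0.0742) were not called. Sqle, Insig1 and Dhcr7 were still lower once the trend was removed, whereas Idi1 was at -0.048 (adjusted p = 0.746) and Lss at -0.15 (adjusted p = 0.151), while 22.5% of all genes were called. The 10 astrocyte markers summed to 514.6 to 690 CPM in AKR/J d15 and to 799.1 to 943.4 CPM in C57BL/6J d15 (0 higher, 5 lower), the 18 neuronal markers to 5033 to 7220 CPM against 8473 to 9473 CPM (0 higher, 8 lower) and the 10 blood vessel markers to 273.4 to 326.1 CPM against 657.9 to 922.5 CPM (1 higher, 9 lower). None of these sums overlapped between the strains, and their part in the differences was not tested. On d17, 0.742% of 20207 genes (0.381% higher and 0.361% lower) and 0 of the 7 were called, 1 of the 7 had an unadjusted p under 0.05 and DESeq2 called 0. Without C57BL/6J d17 replicate 2, 26.4% of all genes and 5 of the 7 were called, Idi1 higher and Hmgcs1, Sqle, Insig1 and Dhcr7 lower in AKR/J.

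The change between days was then followed within each strain. From d15 to d17 in Cav1-null, 27.3% of 20245 genes were called, 14.5% of the tested genes being higher and 12.8% lower on d17. Of the 7 genes, 3 rose and 0 fell, and all 7 differences were above 0, with a median of 0.26 against -0.004 for all tested genes. Hmgcs1 had 319, 312 and 269.9 CPM on d15 and 349.5, 465 and 408 CPM on d17 (log2 change 0.45, SE 0.103, adjusted p = 0.00563). Insig1 had 59.3, 58.0 and 56.9 CPM on d15 and 70.3, 79.6 and 77.2 CPM on d17 (log2 change 0.39, SE 0.075, adjusted p = 0.00191). Lss had 76.9, 77.3 and 71.0 CPM on d15 and 100, 106 and 99.7 CPM on d17 (log2 change 0.45, SE 0.071, adjusted p = 0.000449). For each of the 3 genes every library of d17 was above every library of d15, and each was called whichever library was left out, with adjusted p-values of up to 0.0275, 0.0140 and 0.00360.

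The other 4 genes did not pass the test in this phase. Dhcr7 had 30.7 to 35.6 CPM on d15 and 35.6 to 46.3 CPM on d17 (0.26, SE 0.104, adjusted p = 0.0803), and Idi1 changed by 0.26 (SE 0.108, adjusted p = 0.0977), Sqle by 0.13 (SE 0.071, adjusted p = 0.222) and Fdft1 by 0.042 (SE 0.078, adjusted p = 0.745). Idi1 was called without Cav1-null d15 replicate 3 or d17 replicate 2 (adjusted p = 0.0359 and 0.0322), and Dhcr7 without d17 replicate 3 (adjusted p = 0.0440), where 20.7% to 21.6% of all genes were called. With junction reads, Hmgcs1 (0.424, adjusted p = 0.00344) and Insig1 (0.495, adjusted p = 0.0472) were called higher, whereas Lss was at 0.152 (adjusted p = 0.592) and Idi1 and Fdft1 had no value. In 1 model of all 27 libraries the change of Hmgcs1 was 0.442 (adjusted p = 0.246). The GC slopes of d15 (-0.272 to -0.089) and d17 (-0.191 to -0.052) overlapped in this strain. The slopes on transcript length did not, at -0.031 to -0.024 on d15 and 0.035 to 0.078 on d17 (log2 per doubling of length). After removal of the trend the changes of Hmgcs1, Insig1 and Lss were 0.47, 0.42 and 0.36 (adjusted p = 0.00458, 0.000204 and 0.000345), and Idi1 was called too (0.33, SE 0.074, adjusted p = 0.00333). Markers of other cells moved in the same libraries. The 10 astrocyte markers summed to 380 to 429.6 CPM on d15 and to 595 to 693 CPM on d17, with 8 called higher and 1 lower, and the 10 markers of the oligodendrocyte lineage went from 123 to 142 CPM to 219 to 224 CPM, with 8 called higher. Of the 16 progenitor and cell cycle markers, 14 fell. More cells that make cholesterol and more RNA per cell cannot be told apart in whole brain, and the part of these cells in the rise was not tested.

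**Figure D4:**
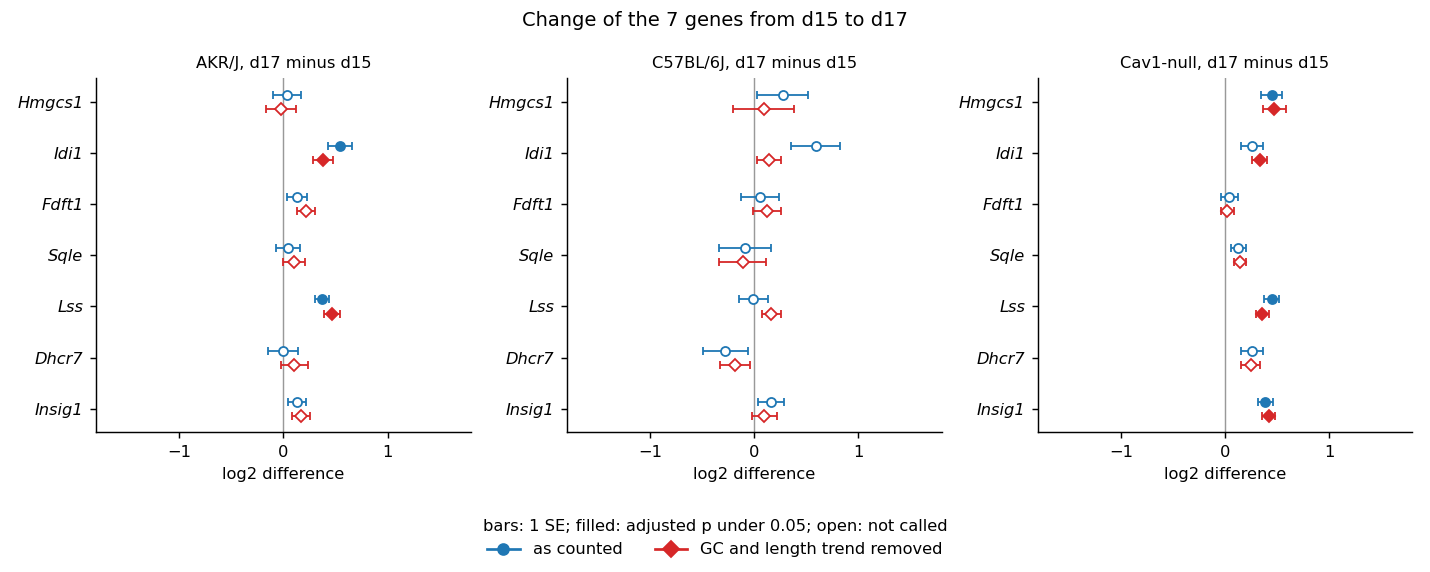
Log2 change from d15 to d17 (x axis) of each gene (y axis) in AKR/J, C57BL/6J and Cav1-null, with bars of 1 SE, as counted (circles) and after removal of the GC and length trend (diamonds), filled where the adjusted p was under 0.05. In Cav1-null, Hmgcs1, Lss and Insig1 lie near 0.4 in both fits.

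In the same phase 22.1% of 19989 genes were called in AKR/J, 11.6% higher and 10.4% lower on d17, and 2 of the 7 rose. Lss went from 69.3, 64.3 and 68.9 CPM to 87.0, 84.4 and 87.7 CPM (0.37, SE 0.07, adjusted p = 0.00843), and Idi1 from 31.2, 31.8 and 32.2 CPM to 38.3, 50.9 and 48.5 CPM (0.55, SE 0.116, adjusted p = 0.0130), which was not called without AKR/J d17 replicate 2 or 3 (adjusted p = 0.0701 and 0.0665, with 7.58% and 8.32% of all genes called). Both calls were lost in 1 model of all 27 libraries (0.355, adjusted p = 0.0701 for Lss and 0.532, adjusted p = 0.160 for Idi1). With junction reads Lss had -0.449 (adjusted p = 0.308), the opposite sign, and was not called. The GC slopes of these libraries did not overlap, at -0.044 to 0.028 on d15 and -0.182 to -0.072 on d17, and with the trend removed Lss had 0.467 (SE 0.073, adjusted p = 0.00346) and Idi1 0.376 (SE 0.096, adjusted p = 0.0245). In C57BL/6J 13% of 19888 genes (7.46% higher and 5.58% lower) and 0 of the 7 were called by edgeR, 1 of the 7 had an unadjusted p under 0.05 and DESeq2 called 0. Lss had 94.7 to 101 CPM on d15 and 82.7 to 106 CPM on d17 (-0.011, SE 0.139). Without C57BL/6J d17 replicate 1, the library with a GC slope of 0.4, Idi1 (0.81, adjusted p = 0.00907) and Dhcr7 (-0.54, adjusted p = 0.0279) were called in this strain, with 33.2% of all genes. The late change was set between strains by an interaction term. Against C57BL/6J, 0.252% of 21431 genes (0.0327% higher and 0.219% lower) and 0 of the 7 were called by edgeR, 1 of the 7 had an unadjusted p under 0.05 and DESeq2 called 1, Lss (0.487, adjusted p = 0.0407), and 6.71% of all genes. The values by edgeR were 0.43 for Lss (SE 0.148, adjusted p = 0.138), 0.15 for Hmgcs1 (SE 0.279) and 0.20 for Insig1 (SE 0.14). Without C57BL/6J d17 replicate 1, Lss (0.63, adjusted p = 0.00153) and Dhcr7 (0.86, adjusted p = 0.00417) were called, with 26.1% of all genes. Against AKR/J, 2.13% of 21663 genes (0.655% higher and 1.48% lower) and 0 of the 7 were called by edgeR, 2 of the 7 had an unadjusted p under 0.05 and DESeq2 called 0, with 0.42 for Hmgcs1 (SE 0.184, adjusted p = 0.209), 0.27 for Insig1 (SE 0.11, adjusted p = 0.175) and 0.089 for Lss (SE 0.091). With all libraries, edgeR thus did not show the late change of any of the 7 genes in Cav1-null to differ from that in the other strains, while DESeq2 called Lss against C57BL/6J.

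The change from d12 to d15 was taken next. In Cav1-null 23.4% of 19934 genes (11.6% higher and 11.8% lower on d15) and 0 of the 7 were called by edgeR, 2 of the 7 had an unadjusted p under 0.05 and DESeq2 called 1, with 28.7% of all genes. Without Cav1-null d12 replicate 1 or 3, Hmgcs1 was called lower on d15 (-0.46 and -0.37, adjusted p = 0.0480 and 0.0228), and without replicate 3 Insig1 was too (-0.26, adjusted p = 0.0358), with 14.3% and 35.9% of all genes called. In C57BL/6J 14.9% of 19154 genes were called, 7.08% higher and 7.8% lower, and 1 of the 7, Insig1, which went from 86.6, 82.5 and 95.7 CPM to 60.3, 67.1 and 59.3 CPM (-0.56, SE 0.109, adjusted p = 0.0267). The call was lost without C57BL/6J d12 replicate 1 or any C57BL/6J library of d15 (adjusted p = 0.0716 to 0.140, with no more than 1.67% of all genes called), and without C57BL/6J d12 replicate 2 Idi1 was called as well (-0.96, adjusted p = 0.0100), with 29.8% of all genes. In AKR/J 28.9% of 19935 genes were called, 14.8% higher and 14% lower, and 2 of the 7. Idi1 fell from 107, 59.6 and 99.3 CPM to 31.2, 31.8 and 32.2 CPM (-1.52, SE 0.225, adjusted p = 0.00310), and it was called whichever library was left out. In the same AKR/J libraries the 18 neuronal markers went from 2294 to 2796 CPM on d12 to 5033 to 7220 CPM on d15 (12 called higher, 0 lower). The 16 progenitor and cell cycle markers went from 3723 to 5809 CPM to 2076 to 2465 CPM (0 higher, 12 lower), and the erythroid markers from between 33280 and 198000 CPM to 2013 to 3071 CPM (0 higher, 13 lower). Their part in the changes of the 7 genes was not tested. Fdft1 rose from 86.1, 69.9 and 86.9 CPM to 126, 107 and 135 CPM (0.55, SE 0.167, adjusted p = 0.0401), a call that was lost when any library other than AKR/J d12 replicate 2 was left out (adjusted p = 0.0505 to 0.147, with 12.4% to 21.7% of all genes called). Without that replicate Insig1 was called lower on d15 (-0.32, adjusted p = 0.0404), with 43.5% of all genes. With junction reads Hmgcs1 was called higher on d15 (0.772, adjusted p = 0.0145), with 27.1% of all genes. It was also called higher with library sizes alone (0.806, adjusted p = 0.0378). After removal of the trend the change of Fdft1 was -0.025 (adjusted p = 0.946), that of Idi1 was -1.36 (adjusted p = 0.00908), and Insig1 (-0.69), Lss (-0.75) and Dhcr7 (-0.63) were called lower on d15. The change of Idi1 in Cav1-null differed from that in AKR/J by 1.57 (SE 0.28, adjusted p = 0.00575), in a test that called 14.7% of 21774 genes, 6.79% higher and 7.86% lower, and 1 of the 7. Without AKR/J d12 replicate 2 Fdft1 was called too (-0.52, adjusted p = 0.0316), with 32.1% of all genes. With junction reads Idi1 had no value and Hmgcs1 was called instead (-0.992, adjusted p = 0.00631). With library sizes alone Hmgcs1 (-1.127, adjusted p = 0.0129) and Fdft1 (-1.045, adjusted p = 0.00808) were called as well, with 17.1% of all genes. Against C57BL/6J, 0.00472% of 21191 genes and 0 of the 7 were called by edgeR, 2 of the 7 had an unadjusted p under 0.05 and DESeq2 called 0, with 0.75 for Idi1 (SE 0.289, adjusted p = 0.27), or 0.94 (adjusted p = 0.0352) without C57BL/6J d12 replicate 2, where 7.3% of all genes were called.

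The rest of the pathway was described by lists. Of 16 other enzymes of sterol synthesis, 7 rose and 0 fell from d15 to d17 in Cav1-null, where 14.5% of all genes rose and 12.8% fell, with a median log2 change of 0.23 against -0.004 for all genes. The largest called change was that of Mvd, the decarboxylase of the mevalonate route, from 24.8 to 36.2 CPM as means (0.55, SE 0.117, adjusted p = 0.00348). In the same phase 4 of the 16 rose and 1 fell in AKR/J, where 22.1% of all genes were called, and 1 rose and 1 fell in C57BL/6J, where 13% of all genes were. Of 10 genes of fatty acid synthesis that are targets of SREBP, 5 rose and 0 fell in Cav1-null, led by the desaturase Scd1, from 18.8 to 44.6 CPM (1.26, SE 0.104, adjusted p = 2.97e-06). Of 9 regulators around SREBP and LXR, 1 rose and 1 fell, and the largest change was that of Nr1h2, an LXR receptor gene, with -0.50 (SE 0.082, adjusted p = 0.000569). Of 10 genes of sterol uptake and transport 3 rose and 2 fell, and of 8 genes of efflux, storage and clearance 3 rose and 0 fell. With the GC and length trend removed, 10 of the 16 other enzymes rose and 1 fell in Cav1-null, where 30.5% of all genes were called, and Mvd (0.544, adjusted p = 0.000330), Scd1 (1.22, adjusted p = 6.41e-07) and Nr1h2 (-0.527, adjusted p = 0.00130) kept their calls. In AKR/J 6 of the 16 then rose and 1 fell, where 22.5% of all genes were called. In C57BL/6J 2 rose and 1 fell, where 19.6% were called. Of the 8 genes of efflux, storage and clearance, 3 rose in Cav1-null, 3 in AKR/J and 4 in C57BL/6J, and 0 fell. Of the 10 fatty acid genes, 5 rose in Cav1-null, 1 in AKR/J and 1 in C57BL/6J, and 0 fell.

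Between Cav1-null and C57BL/6J on d15, 5 of the 16 other enzymes were higher and 7 lower in Cav1-null, where 58.6% of all genes were called. Of the 10 fatty acid genes 9 were lower and 0 higher, with a median of -0.87, and Fasn, the fatty acid synthase, had 105 CPM against 745 CPM (-2.79, SE 0.117, adjusted p = 3.93e-08). Of the 9 regulators 6 were lower and 1 higher, and Srebf2, the gene of the SREBP that drives cholesterol synthesis, had 106 CPM against 365 CPM (-1.74, SE 0.075, adjusted p = 4.30e-08). Of the 10 genes of uptake and transport 7 were lower and 1 higher, led by the receptor gene Lrp1 (-1.76, SE 0.088, adjusted p = 9.27e-08), and 5 of the 8 genes of efflux, storage and clearance were lower and 0 higher. These differences lie between groups whose GC slopes did not overlap, at -0.272 to -0.089 in Cav1-null d15 and 0.351 to 0.392 in C57BL/6J d15. With the GC and length trend removed, where 44.9% of all genes were called, the fatty acid genes had 8 lower and 0 higher with a median of -0.659, the regulators 4 lower and 2 higher, the genes of uptake and transport 2 lower and 3 higher, those of efflux, storage and clearance 4 lower and 2 higher, and the other enzymes 7 lower and 4 higher. Fasn then had -1.58 (SE 0.082, adjusted p = 2.08e-07), Srebf2 -0.83 (SE 0.067, adjusted p = 2.86e-06) and Lrp1 -0.48 (SE 0.059, adjusted p = 6.23e-05), so that these 3 kept their sign and their call at a smaller size. Within C57BL/6J d17, the 10 fatty acid genes summed to 3518 CPM in the library with a GC slope of 0.4, and to 1249 and 1906 CPM in those with -0.127 and 0.132. The part of the GC slope in these differences was not tested beyond the removal of the trend. The 10 blood vessel markers summed to 242 to 252 CPM in Cav1-null d15 and to 658 to 923 CPM in C57BL/6J d15, and the part of the vessels in these differences was not tested. Against AKR/J over the 3 days, where 19.9% of all genes were called (11.1% higher and 8.85% lower), 4 of the 16 enzymes were higher and 1 lower in Cav1-null, led by Sc5d (0.50, SE 0.073, adjusted p = 9.11e-05, or 0.385, SE 0.096, adjusted p = 0.00761 with the GC and length trend removed). With that trend removed, 3 of the 16 were higher and 2 lower, while 23% of all genes were called. Their median was then -0.001, against -0.09 for all genes.

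Among themselves, the 6 genes other than Idi1 had positive correlations over the 27 libraries. The 15 pairs ranged from 0.22 to 0.88 (Pearson's r of log2(CPM + 1), a description over libraries that share groups, depth and GC slope), with Sqle and Dhcr7 the most alike at 0.88, and from 0.061 (Fdft1 and Lss) to 0.837 for deviations from the group means. The 6 pairs with Idi1 had -0.67 to 0.02, and -0.71 to -0.22 for deviations from the group means. Against the mean standardized level of the 7 genes, 4 of the 10 most alike of 16439 genes were on the list of other sterol enzymes, among them Mvd (r = 0.86), Cyp51 (r = 0.82) and Acat2 (r = 0.81). Over all 16 of these enzymes, 6 had an r above 0.5 and 4 an r below 0, with a median of 0.437. The range ran down to Ggps1 (r = -0.337), Tm7sf2 (r = -0.196), Msmo1 (r = -0.148) and Lbr (r = -0.076), with Fdps (r = 0.007) and Ebp (r = 0.008) near 0. Among the 10 most alike, the genes not on that list were Dnaja3 (r = 0.87), Wdr18 (r = 0.84), Rtn3 (r = 0.83), Ywhaz (r = 0.82), Glul (r = 0.82) and Fads2 (r = 0.81). For deviations from the group means 3 of the 10 were sterol enzymes, including Acat2 (r = 0.93) and Cyp51 (r = 0.91), and Pbx2 was the most alike (r = 0.96), followed further down by Hsph1 (r = 0.92), Leo1 (r = 0.91), Fkbp4 (r = 0.91), Cdv3 (r = 0.91), Ruvbl2 (r = 0.91) and Puf60 (r = 0.90).

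Splice junctions gave a readout within Hmgcs1 that does not depend on its level. From the end of the first exon, reads spanned either to a near acceptor (intron 120152050 to 120156524) or to a far one (intron 120152050 to 120161199, GRCm39), and the annotation holds transcripts with and without the exon between them. No library was at 0 for either junction. The near acceptor took 18.5%, 19.7% and 18.8% of the reads from this donor in AKR/J d12, of 119, 228 and 170 reads, with exact 95% binomial intervals that reach from 12.0% to 26.6% and cover counting error only. It took 30.8%, 25.5% and 25.6% in AKR/J d15, above every library of d12 (difference of means 8.25 percentage points, p = 0.1 by an exact two-sided permutation test, the smallest that 3 against 3 libraries allow). In C57BL/6J it went from 20.8% ± 3.18 to 25.8% ± 0.343 (SD, n = 3, exact permutation p = 0.1), also without overlap. In Cav1-null it was 24.04% ± 3.32 on d12 and 26.1% ± 1.32 on d15 (SD, n = 3, exact permutation p = 0.4), and the libraries overlapped. On d17 it was 26.2% ± 3.09 in Cav1-null, 25.5% ± 2.10 in C57BL/6J and 23.97% ± 0.608 in AKR/J (SD, n = 3). In AKR/J the libraries of d17 lay below those of d15 (-3.30 percentage points, exact permutation p = 0.1), and in the other strains they overlapped. These 6 changes between days were not adjusted for their number, and no adjusted value could pass the threshold.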

How the data were processed

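Whole-brain RNA of 27 fetuses was sequenced, 3 for each of 9 groups of strain and day, as given by the labels. The authors checked the reads with FastQC, trimmed them with cutadapt and fastp, mapped them with STAR to GRCm39 and deposited whole read counts per Ensembl gene and read counts per splice junction; the counting tool and its strand setting are not given in the sources used here. Junctions with short overhangs, few reads in all samples or multi-mapped reads had been removed by the authors, so a 0 in 1 library can be a removed count, and junction sums used only junctions with a read in every library of the comparison, which differ between comparisons and left 4 to 6 of the 7 genes with a value.

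From the counts, genes were kept by filterByExpr, scaled by TMM and tested with edgeR 4.0.16 (R 4.3.3, quasi-likelihood test, Benjamini-Hochberg adjustment over all tested genes, called at an adjusted p under 0.05), with the libraries of each comparison alone; SE is the log2 difference divided by the root of F. Combined comparisons had day as a covariate. DESeq2 1.42.0, other scalings, no filter, the likelihood ratio test, 1 model of all 27 libraries, a replicate block, junction reads and leaving out each library were alternatives. In another, chosen after seeing the data, a loess trend (span 0.3) with transcript GC content and length was removed; 54749 of 55416 genes matched GENCODE. Correlations used log2(CPM + 1). The fits were tested on simulated data. The 7 genes were named in every comparison, with the largest called change of each pathway list and the 10 genes most alike to the 7; some of these are not reported here. The members and lists were chosen with earlier results of these data known.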

Additional observations from a re-analysis of the deposited data

Results flagged for a closer look

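The change of Idi1 from d12 to d15 differed between Cav1-null and AKR/J by 1.573 on the log2 scale (edgeR's quasi-likelihood test of the interaction over 12 libraries, SE 0.28, adjusted p = 0.00575), which drew attention because strains were compared in the same phase. Idi1 went from 46.2, 51.5 and 36.1 CPM to 41.7, 42.7 and 51.3 CPM in Cav1-null, and from 107, 59.6 and 99.3 CPM to 31.2, 31.8 and 32.2 CPM in AKR/J. The difference was 1.38 to 1.75 when 1 library was left out, and it was called each time, though junction reads gave no value for it. With the GC and length trend removed it was 1.25 (SE 0.294, adjusted p = 0.0316). The AKR/J d12 libraries had GC slopes of -0.313 to -0.094, length slopes of -0.404 to -0.166 and erythroid markers at 33280 to 198000 CPM, and their part in this difference was not tested. Groups of 3 libraries are too small for a search for single libraries that stand far from the rest of their group.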

How the results depend on the processing

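Of 2503 values of single genes under an alternative, 2167 kept their sign and their side of the threshold, 95 lost a call, 79 gained one, 7 changed sign with a call in either fit, and 155 that were called in neither fit changed sign. Of 363 medians over the 7 genes, 314 moved by less than the spread between replicates (SD 0.103), 33 moved further and 16 changed sign where any of the 7 was called. With library sizes alone, the median log2 difference of the 7 was -0.149 for Cav1-null against C57BL/6J on d15, 0.464 for Cav1-null against AKR/J on d12, -0.833 and -0.109 for AKR/J against C57BL/6J on d12 and d15, 0.323 for d12 to d15 in AKR/J (a change of sign), 0.178 for d15 to d17 in C57BL/6J, 0.077 (a change of sign where 0 of the 7 were called) and -0.45 (a change of sign) for the early change of Cav1-null against C57BL/6J and AKR/J, and -0.074 and 0.262 over the 3 days. That scaling moved the median of all genes for d12 to d15 in AKR/J from 0.022 to 0.457. With junction reads, over the 4 to 6 genes with a value, it was -0.155 and -0.041 (a change of sign) for Cav1-null against C57BL/6J and AKR/J on d15, -0.01 for AKR/J against C57BL/6J on d15, and 0.121 and 0.377 for the early and late change of Cav1-null against AKR/J. That early change was also -0.067 with 1 model of all 27 libraries and -0.059 with no filter, both changes of sign, and 1 model gave -0.579 for AKR/J against C57BL/6J on d12. With the GC and length trend removed it was -0.12 and 0.001 for Cav1-null against C57BL/6J on d15 and d17, -0.317 against AKR/J on d12, 0.032, -0.383 and -0.216 for AKR/J against C57BL/6J on d12, d15 and d17, -0.633 for d12 to d15 in AKR/J, 0.515 for the early change of Cav1-null against AKR/J and -0.014 against AKR/J over the 3 days. Of these, -0.317, 0.032 and -0.014 were changes of sign where any of the 7 was called, and 0.001 was one where 0 were called. The cause was not tested.

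Single genes with a call that changed sign were, with that trend removed, Lss on d15 (0.124) and over 3 days (0.022) in Cav1-null against C57BL/6J, Dhcr7 on d12 (0.036) and Idi1 on d15 (-0.048) in AKR/J against C57BL/6J, and Fdft1 from d12 to d15 in AKR/J (-0.025), and with junction reads Lss on d15 in AKR/J against C57BL/6J (0.018) and from d15 to d17 in AKR/J (-0.449). Leaving out 1 library gave medians of -0.286 to 0.04 for Cav1-null against C57BL/6J on d17, 0.014 to 0.166 against AKR/J on d15, -0.384 to -0.17 for AKR/J against C57BL/6J on d17, -0.211 to -0.007 for d12 to d15 in AKR/J, -0.088 to 0.217 for d15 to d17 in C57BL/6J, -0.1 to 0.091 and -0.117 to 0.154 for the early change of Cav1-null against C57BL/6J and AKR/J, and -0.051 to 0.432 for its late change against C57BL/6J.

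The number of the 7 genes called moved by over 1.5 times as follows, each number with the share of all genes called (reported values in parentheses). For Cav1-null against C57BL/6J on d12 (0, 0%) it was 1 with no filter (2.16%), 2 with the likelihood ratio test (6.52%) or DESeq2 (16.1%) and 3 with 1 model (7.44%). With junction reads it was 2 on d15 (54.5%, from 5, 58.6%) and 0 over the 3 days (46.2%, from 4, 42.7%). Against AKR/J it was, on d12 (1, 19.6%), 2 with library sizes alone (16.8%), no filter (13%), the likelihood ratio test (25.2%), DESeq2 (25.9%) or junction reads (17%), 3 with 1 model (35.6%) and 0 with the trend removed (15.9%). On d15 (2, 19.3%) it was 1 with RLE (19.2%), library sizes alone (20.5%), no filter (11.3%), the likelihood ratio test (22%) or the replicate block (13.6%) and 0 with 1 model (6.8%) or junction reads (12.4%). On d17 (2, 12.4%) it was 1 with 1 model (2.74%), the block (6.99%) or the trend removed (14.1%) and 0 with junction reads (3.37%), and over the 3 days (1, 19.9%) 0 with junction reads (11.9%) or the trend removed (23%). For AKR/J against C57BL/6J on d12 (3, 28.6%) it was 7 with 1 model (47.0%), 1 with junction reads (25.2%) and 0 with the trend removed (10.5%), and on d15 (5, 41.1%) 1 and 3 with the latter 2 (41.8% and 22.5%). For d12 to d15 it was, in AKR/J (2, 28.9%), 1 with RLE (29%), the block (21.3%) or junction reads (27.1%) and 4 with the trend removed (28.1%), in C57BL/6J (1, 14.9%), 2 with no filter (8.71%), the likelihood ratio test (22.1%), DESeq2 (27.2%) or 1 model (16.3%), 0 with the block (0%) or junction reads (15.7%) and 3 with the trend removed (19.8%), and in Cav1-null (0, 23.4%), 1 with no filter (14%) or DESeq2 (28.7%). For d15 to d17 it was 0 with 1 model (10.2%) or junction reads (16.3%) in AKR/J (2, 22.1%) and 5 with no filter in Cav1-null (16.6%, from 3, 27.3%). For the early change of Cav1-null against AKR/J (1, 14.7%) it was 3 with library sizes alone (17.1%) and 2 with 1 model (19.9%) or the trend removed (6.65%), and for its late change against C57BL/6J (0, 0.252%) 1 with DESeq2 (6.71%).

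The replicate numbers did not pair the libraries: in no comparison were all 3 correlations of same-numbered deviations over 0.1. With the replicate block, the calls of Insig1 (adjusted p = 0.102) on d15 and Lss (adjusted p = 0.153) on d17 in Cav1-null against AKR/J, Insig1 (adjusted p = 0.0689) on d15 in AKR/J against C57BL/6J, Fdft1 from d12 to d15 in AKR/J (adjusted p = 0.0682) and Insig1 from d12 to d15 in C57BL/6J (adjusted p = 0.0773) were lost. The lowest count was 614 reads (Dhcr7, AKR/J d12 replicate 3).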
